A study of Mus musculus with 4 samples.

Results

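Hyaluronan is a long, unbranched polysaccharide of the extracellular matrix, and its genes were read out here in fibroblasts taken from mouse mammary tumours. The members are 10 genes taken by name for their role in hyaluronan biology: the synthases Has1, Has2 and Has3, the breakdown genes Hyal1, Hyal2 and Cemip, the matrix binders Tnfaip6, Ptx3 and Vcan, and the receptor Cd44. All 10 were found among the 22456 genes of the table, and all 10 passed the filter on low values, a mean of at least 3.32 on the log2 scale, which left 14548 genes for testing.

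The tumours grew from 4T1 cells, a mouse mammary carcinoma line from Balb/c, injected into the mammary fat pad of Balb/c mice (BALB/cAnN per the labels' protocols), and fibroblasts were isolated on day 8. The DMSO group (2 libraries) came from tumours of 4T1 cells pre-treated with the solvent, and the GSK group (2 libraries) from tumours of 4T1 cells given 5 µM GSK269962A for 5 days. The labels describe treatment of the cancer cells before injection, and the fibroblasts themselves were host cells. They were what remained after cells with CD45, CD31, CD326 or human CD2 had been removed on magnetic columns, so pericytes and smooth muscle cells were not depleted. Each library is given as log2 expression normalised by the authors. Counts were not used here, and sequencing depth is unknown. Whether the libraries of a group came from separate animals is not said in the labels, and the p-values measure no more than the spread between these samples, which may be technical.

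As background, the synthases sit in the plasma membrane, join UDP-glucuronic acid and UDP-N-acetylglucosamine, and push the growing chain out of the cell. Outside, Tnfaip6 (also known as TSG-6) transfers the heavy chains of serum inter-alpha-inhibitor onto hyaluronan, Ptx3, a long pentraxin, helps to hold those modified chains together, and Vcan, the large proteoglycan versican, binds hyaluronan through its link modules. Cd44 is the main cell surface receptor for hyaluronan. Hyal2 at the cell surface, Hyal1 in lysosomes and Cemip, a secreted or membrane-bound protein needed for hyaluronan depolymerisation in skin fibroblasts, serve its breakdown.

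In the GSK libraries 6 of the 7 transcripts for making, binding and sensing hyaluronan lay lower, and none of the 3 for its breakdown did. Tnfaip6 was 1.74-fold lower, Ptx3 1.66-fold lower and Has1 1.48-fold lower, while Cd44, Vcan and Has2 were 1.30-fold, 1.22-fold and 1.14-fold lower. None of the 10 members passed an adjusted p of 0.05 in limma's test over all genes, where 0.282% of tested genes did. At an unadjusted p under 0.05, 6 of 10 members were lower and 0 were higher in GSK, against 8.13% and 7.88% of all tested genes. Members and the lists below were chosen with earlier results of these data known, so such shares are a description and not a test. The median change over the 10 members was -0.24 (log2), and over all tested genes it was -0.00074. In 6 members both GSK libraries lay below both DMSO libraries (24.5% of all tested genes did so), in Has3 and Cemip both lay above (24.1%), and in Hyal1 and Hyal2 the groups overlapped. In bulk libraries, fewer cells of a type and less RNA per cell cannot be told apart.

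**Figure D1:**
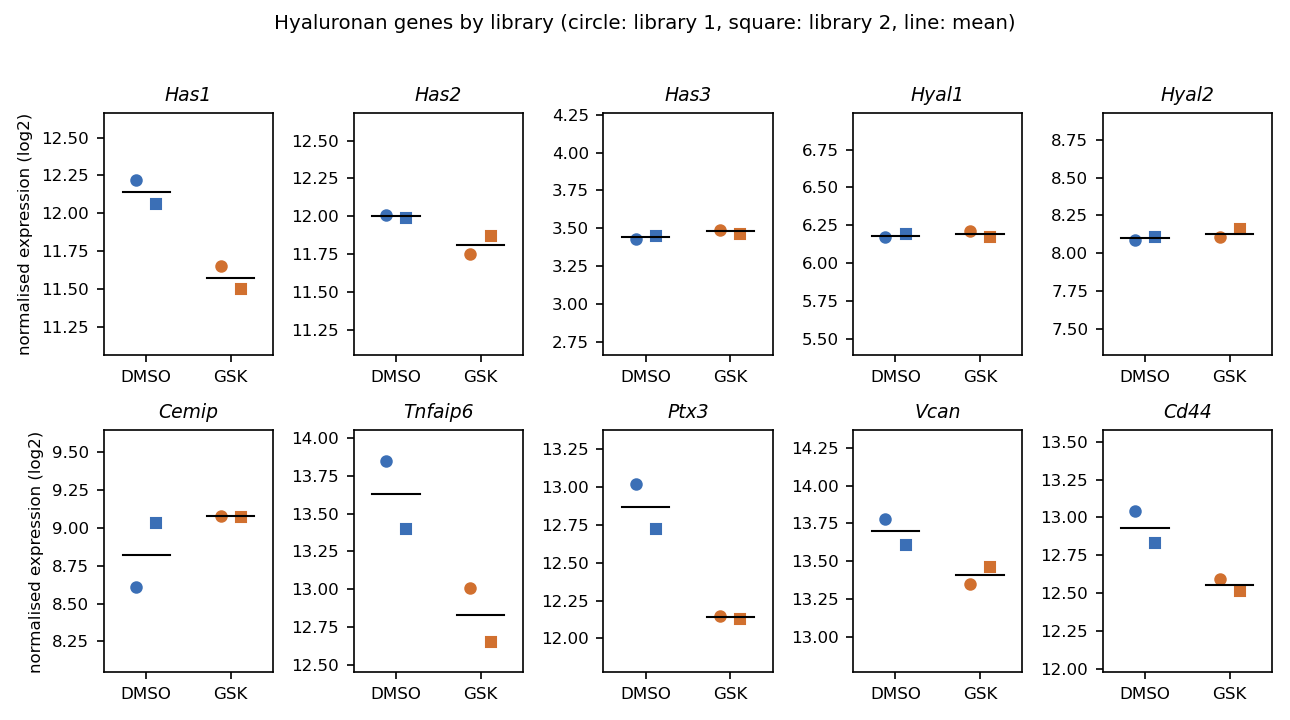
Normalised expression (log2) of the 10 hyaluronan genes in each library, with every panel spanning the same number of log2 units; circles are library 1, squares library 2, and lines the group means. The GSK libraries lie below the DMSO libraries for Has1, Has2, Tnfaip6, Ptx3, Vcan and Cd44, and DMSO library 1 stands apart for Cemip at 8.61.

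The stretches upstream of the 3 members with the largest changes are shown because these genes lay lower together. The sequences are from RefSeq on GRCm38.p6, whose table held 8 of the 10 members, and capitals mark matches to the motifs named after them. The Tnfaip6 stretch is chr2:52037863-52038008 (plus strand), that of Ptx3 chr3:66219637-66219896 (plus strand) and that of Has1 chr17:17855206-17855438 (minus strand). Each ends before the gene start in the coordinates given further below, and that of Ptx3 runs 10 bases past its RefSeq start. Motif positions count from the RefSeq start, which can differ from that gene start.
Tnfaip6: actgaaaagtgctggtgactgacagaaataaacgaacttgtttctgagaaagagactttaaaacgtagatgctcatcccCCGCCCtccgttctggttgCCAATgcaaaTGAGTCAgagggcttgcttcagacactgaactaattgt
Ptx3: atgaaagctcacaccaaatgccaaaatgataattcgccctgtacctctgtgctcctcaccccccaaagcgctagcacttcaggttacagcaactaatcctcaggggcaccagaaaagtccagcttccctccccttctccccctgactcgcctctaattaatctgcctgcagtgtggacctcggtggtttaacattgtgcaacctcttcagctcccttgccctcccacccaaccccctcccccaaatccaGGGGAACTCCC
Has1: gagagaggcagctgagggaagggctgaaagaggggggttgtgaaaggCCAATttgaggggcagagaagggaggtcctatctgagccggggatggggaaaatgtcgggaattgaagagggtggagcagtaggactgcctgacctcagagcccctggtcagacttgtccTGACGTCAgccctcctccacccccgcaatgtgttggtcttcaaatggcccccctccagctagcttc

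Both strands were searched over 300 bases per gene, from 250 before to 50 after the RefSeq start. The AP-1 motif TGANTCA was found in Tnfaip6 alone of the 8 members, with its first base at -142 from the start, and in 7.81% of all 32851 promoters of the table. The cyclic AMP response element TGACGTCA was found in Has1 alone of the 8, at -83, and in 1.79% of all promoters. The NF-kB motif was found in Ptx3, as a pair of overlapping matches whose first bases are at -1 and 1, and in Hyal2 at -238, against 4.51% of all promoters. The CCAAT box, spelled CCAAT, was found in 4 of the 8 members (37.4% of all promoters), the GC box GGGCGG in 6 of 8 (35.7%) and the TATA box TATAAA in Cemip alone (13.6%). The CArG box was in none of the 8 (1.63%). The 3 genes thus share none of these motifs beyond the CCAAT box of Tnfaip6 and Has1, and a match describes letters in a window, not a bound site.

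Of the synthases, Has1 (ENSMUSG00000003665, GRCm38 chromosome 17, 17843323 to 17855205) measured 12.22 (log2) in DMSO library 1, 12.06 in DMSO library 2, 11.65 in GSK library 1 and 11.50 in GSK library 2, an order of libraries that holds for all values after it. The groups were 0.41 apart at their closest, more than the distance within either pair of replicates, 0.16 and 0.15. The change was -0.56 ± 0.08 (SE, 95% interval -0.75 to -0.38), with an unadjusted p of 0.000252 and a limma adjusted p of 0.0556. There were 52 genes among the 14548 tested with a more negative change.

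Has2 (ENSMUSG00000022367, chromosome 15, 56665627 to 56694539), the synthase needed for heart development, measured 12.01 and 11.99 in DMSO and 11.75 and 11.87 in GSK. The GSK libraries lay below, with 0.12 between the nearest libraries of the groups and the same distance between the GSK replicates. Its change was -0.19 ± 0.05 (interval -0.32 to -0.05, limma adjusted p = 0.181). Has2 overlaps the antisense gene Has2os in exons, which stood at 5.41 to 5.50, and no source used here states whether reads were counted by strand.

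Has3 (ENSMUSG00000031910, chromosome 8, 106870242 to 106884566) was near the filter in every library, at 3.43 and 3.45 in DMSO and 3.49 and 3.46 in GSK. The change of 0.04 ± 0.02 (interval -0.02 to 0.09) had a limma adjusted p of 0.458. Has3 also shares 360 bases at 99.4% identity with Chtf8, a gene on the opposite strand at 10.87 to 10.95, so its value is uncertain.

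Per kilobase of merged exon, Has1 made up 51.9% and 49.5% of the summed synthase signal in the DMSO libraries and 46.6% and 41.9% in the GSK libraries. Has2 made up nearly all of the rest, with Has3 between 0.0835% and 0.116%. The shares depend on the length used: with the longest transcript Has1 made up 58%, 55.5%, 52.6% and 47.9%, which puts it above Has2 in 3 of 4 libraries instead of 1. Without any scaling by length, the mean log2 difference of Has1 minus Has2 was 0.14 in DMSO and -0.24 in GSK. The change in this difference, -0.38, is the same whichever length is used. An exact two-sided permutation test over libraries gave p = 0.333, the smallest p that 2 libraries against 2 allow.

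The matrix binder Tnfaip6 (ENSMUSG00000053475, chromosome 2, 52038009 to 52056686) had the highest level per length of all members and the largest change. It measured 13.85 and 13.40 in DMSO and 13.01 and 12.65 in GSK. The 4 libraries were spread out, with 0.45 between the DMSO replicates, 0.37 between the GSK replicates and 0.39 between the nearest libraries of the groups. The change was -0.80 ± 0.17 (interval -1.21 to -0.38, limma adjusted p = 0.108), and 9 tested genes had a more negative one.

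Ptx3 (ENSMUSG00000027832, chromosome 3, 66219910 to 66225805; it lies within an intron of Veph1) measured 13.02 and 12.72 in DMSO and 12.15 and 12.13 in GSK. The GSK replicates differed by 0.02 and lay 0.57 below the nearer DMSO library. The change was -0.73 ± 0.10 (interval -0.97 to -0.50), with an unadjusted p of 0.000233 and a limma adjusted p of 0.0546. It was the smallest adjusted p among the 10 members, and 15 tested genes had a more negative change.

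Vcan (ENSMUSG00000021614, chromosome 13, 89655312 to 89742509) measured 13.78 and 13.61 in DMSO and 13.35 and 13.46 in GSK, and its groups were 0.15 apart, close to the replicate distances of 0.17 and 0.11. The change was -0.29 ± 0.08 (interval -0.48 to -0.10, limma adjusted p = 0.155). The table gives 1 value per gene, so the splice forms of Vcan and of Cd44 (9 annotated transcripts each) are summed in it.

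The receptor Cd44 (ENSMUSG00000005087, chromosome 2, 102811141 to 102901665) measured 13.04 and 12.83 in DMSO and 12.59 and 12.51 in GSK. The groups were 0.24 apart, slightly more than the 0.21 between the DMSO replicates. The change was -0.38 ± 0.08 (interval -0.58 to -0.19, limma adjusted p = 0.101).

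Among the breakdown genes, Hyal2 (ENSMUSG00000010047, chromosome 9, 107567945 to 107572779) measured 8.09 and 8.11 in DMSO and 8.11 and 8.16 in GSK, which gives a change of 0.03 ± 0.05 (interval -0.08 to 0.15, limma adjusted p = 0.763). Hyal1 (ENSMUSG00000010051, chromosome 9, 107576927 to 107581710) measured 6.17 and 6.19 in DMSO and 6.21 and 6.17 in GSK, which gives a change of 0.01 ± 0.04 (interval -0.09 to 0.11, limma adjusted p = 0.925). Both intervals leave out a change of the size estimated for Has1 in either direction. Hyal1 shares 1921 identical bases with Naa80, a gene on the same strand at 7.63 to 7.66, which makes the value of Hyal1 uncertain.

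Cemip (ENSMUSG00000052353, chromosome 7, 83932857 to 84086502) measured 8.61 and 9.03 in DMSO and 9.08 and 9.07 in GSK. DMSO library 1 was low, and the other 3 libraries lay within 0.05 of each other. The change of 0.26 ± 0.13 (interval -0.05 to 0.56) had a limma adjusted p of 0.377. It was 0.0496 without DMSO library 1 and 0.466 without DMSO library 2. The 10 markers of pericytes and smooth muscle had their lowest summed level in the same library, with 15.37 (log2 of the sum) and 15.67 in DMSO and 15.67 and 15.76 in GSK. Of these markers 4 lay higher and 2 lower in both GSK libraries (24.1% and 24.5% of all tested genes), and none passed in limma. None was below 8.21 in any library, and Acta2 was highest at 14.91. Their part in the Cemip difference was not tested.

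**Figure D2:**
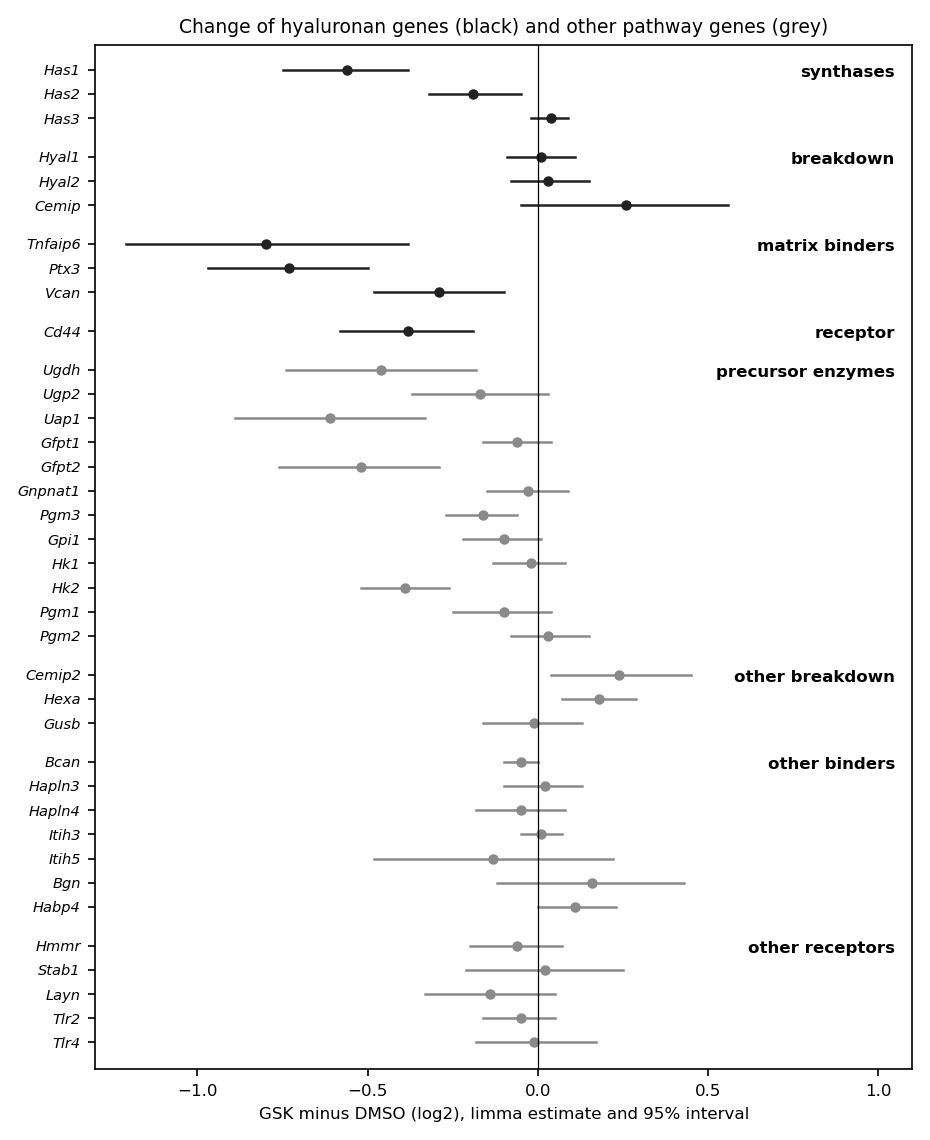
Change from DMSO to GSK (log2) for the 10 hyaluronan genes in black and for other tested pathway genes in grey, as limma estimates with 95% intervals. The intervals of Has1, Has2, Tnfaip6, Ptx3, Vcan and Cd44 lie below 0, and those of Has3, Hyal1, Hyal2 and Cemip include it; none of the genes shown passed an adjusted p of 0.05.

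Levels of different genes were compared per kilobase of merged exon on the log2 scale. Tnfaip6 stood highest at 12.45 (mean of 4 libraries), followed by Ptx3 at 11.08 and Cd44 at 9.98. Has2 at 9.82, Vcan at 9.70 and Has1 at 9.68 came next. Below them lay Hyal2 at 6.40, Cemip at 5.33, Hyal1 at 4.27 and Has3 at 0.78. Has1, Has2, the 3 matrix binders and Cd44 thus lay well above Hyal2, Cemip and Hyal1. Has1 exceeded Hyal2 by 7.35-fold to 12.76-fold in the single libraries. Breakdown genes that are not members were not scaled by length.

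Neighbours in the middle of this order could not be separated. Cd44 was between 0.04 below and 0.35 above Has2, Has2 between 0.00 and 0.18 above Vcan, and Vcan between 0.13 below and 0.29 above Has1 across the 4 libraries. With the length of the longest transcript in place of merged exons, Has1 took rank 4 and Has2 rank 6. Tnfaip6, Ptx3 and Cd44 kept their places at the top, and the last 4 places were the same.

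**Figure D3:**
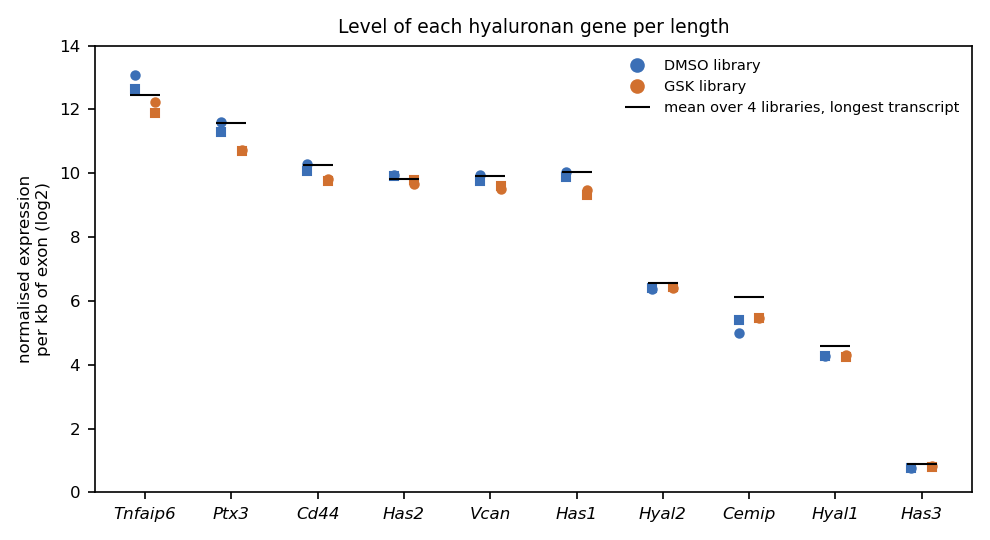
Normalised expression per kilobase of merged exon (log2) of each hyaluronan gene, with DMSO libraries in blue, GSK libraries in orange (circles library 1, squares library 2), and black bars for the 4-library mean when the longest transcript sets the length. Tnfaip6 and Ptx3 lead, Cd44, Has2, Vcan and Has1 form a close group, and Hyal2, Cemip, Hyal1 and Has3 lie lower.

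Precursor enzymes supply the sugar nucleotides that the synthases use. Of 12 such genes, all tested, 0 passed an adjusted p of 0.05 in limma. At an unadjusted p under 0.05, 5 were lower and 0 higher in GSK (8.13% and 7.88% of all tested genes). In 9 of them both GSK libraries lay below both DMSO libraries (24.5% of all tested genes), and in the other 3 the groups overlapped. The median change was -0.13, and -0.0748 without DMSO library 1. The 5 genes were Hk2, Gfpt2, Uap1, Ugdh and Pgm3, of which Ugdh and Pgm3 are named here after their values were seen.

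Uap1, which makes UDP-N-acetylglucosamine, measured 12.16 and 11.78 in DMSO and 11.37 and 11.35 in GSK, which gives a change of -0.61 ± 0.11 (limma adjusted p = 0.084). Gfpt2, an isoform of the enzyme that commits fructose 6-phosphate to the hexosamine pathway, measured 12.98 and 12.69 in DMSO and 12.35 and 12.27 in GSK, which gives a change of -0.52 ± 0.10 (limma adjusted p = 0.0792). Its sister isoform Gfpt1, named after its value was seen, was at -0.06 ± 0.04 (limma adjusted p = 0.51), with means of 11.66 and 11.60. The difference between the isoforms was not tested.

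Ugdh, which makes UDP-glucuronic acid, measured 13.44 and 13.07 in DMSO and 12.83 and 12.76 in GSK, which gives a change of -0.46 ± 0.12 (limma adjusted p = 0.142). Hk2, an inducible hexokinase that also feeds glycolysis, measured 12.39 and 12.35 in DMSO and 12.04 and 11.93 in GSK, which gives a change of -0.39 ± 0.05 (limma adjusted p = 0.0564). Uap1, Gfpt2, Ugdh and Hk2 were thus lower in each GSK library than in each DMSO library. Beside Gfpt1, changes were smaller at Ugp2 (-0.17), Pgm3 (-0.16), Gpi1 (-0.1), Pgm1 (-0.1), Gnpnat1 (-0.03), Hk1 (-0.02) and Pgm2 (0.03). These genes were named after their values were seen. Ugdh was at -0.274 and Uap1 at -0.423 without DMSO library 1, against -0.64 and -0.799 without DMSO library 2.

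The other breakdown genes lay level or slightly higher in GSK. Of 9, 5 were in the table and 4 tested, with a median change of 0.13. None passed in limma, and 2 were higher and 0 lower at an unadjusted p under 0.05 (7.88% and 8.13% of all tested genes). Hexa, a subunit of the lysosomal hexosaminidase that trims hyaluronan fragments, measured 11.51 and 11.48 in DMSO and 11.70 and 11.65 in GSK (change 0.18 ± 0.04, limma adjusted p = 0.136). Cemip2, a cell surface relative of Cemip that takes part in hyaluronan breakdown, measured 10.90 and 10.98 in DMSO and 11.06 and 11.31 in GSK (change 0.24 ± 0.09, limma adjusted p = 0.246). Hyal3 stood at 2.66 to 2.72, below the filter.

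The other binders and receptors showed small differences. Of 16 other binders, 7 were tested and 0 passed in limma, with 1 lower and 0 higher at an unadjusted p under 0.05 (8.13% and 7.88% of all tested genes) and a median change of 0.01. Bcan, the proteoglycan brevican, was that gene, with a change of -0.05 ± 0.02 at a level of 3.54 near the filter (limma adjusted p = 0.272). Habp4, an intracellular hyaluronan-binding protein, was at 0.11 ± 0.05 (limma adjusted p = 0.326) and Bgn, the small proteoglycan biglycan, at 0.16 ± 0.11 (limma adjusted p = 0.54).

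The heavy chains that Tnfaip6 transfers are made mainly in the liver, and those of their genes with a value were low here. Itih2 stood at 2.38 to 2.42, below the filter, and Itih3 at 4.00 to 4.03, while Itih1 had no value. Of related genes, Itih4 stood at 2.68 to 2.73, below the filter. Itih5 stood at 11.20 to 11.67 with overlapping groups (change -0.13 ± 0.14, limma adjusted p = 0.695). These genes were chosen after their values were seen.

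Of 7 other receptors, 5 were tested, and 0 passed in limma or had an unadjusted p under 0.05, with a median change of -0.05. Layn, the membrane receptor layilin, was at -0.14 ± 0.08 (limma adjusted p = 0.44), Tlr2, a toll-like receptor for which hyaluronan fragments have been proposed as ligands, at -0.05 ± 0.04 (limma adjusted p = 0.597), and Hmmr, a hyaluronan-binding protein of dividing cells, at -0.06 ± 0.06 (limma adjusted p = 0.629). Lyve1, the receptor of lymphatic endothelium, stood at 0.33 to 0.34, below the filter. Over all 44 other pathway genes, 37 were in the table and 28 tested, none passed in limma, and 6 were lower and 2 higher at an unadjusted p under 0.05 (8.13% and 7.88% of all tested genes).

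Early response and stress genes, which are also switched on while tissue is taken apart, had lower estimates in GSK, as did 6 of the 10 hyaluronan genes. All 21 of that list were tested and had a negative estimate, though Ier2, named after its value was seen, was at -0.0 ± 0.06. Of the 21, 18 had both GSK libraries below both DMSO libraries (24.5% of all tested genes) and 3 overlapped. Of the list 2 fell in limma (0.131% of all tested genes), Hspa1b (-0.72 ± 0.08, adjusted p = 0.0366) and Hspa1a (-0.61 ± 0.07, adjusted p = 0.046), inducible heat shock genes that are near copies of each other. Myc followed at -0.68 ± 0.09 (limma adjusted p = 0.0543). The summed level of the list was 18.24 and 18.12 (log2) in DMSO and 17.94 and 17.70 in GSK. Its part in the differences of the hyaluronan genes was not tested.

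**Figure D4:**
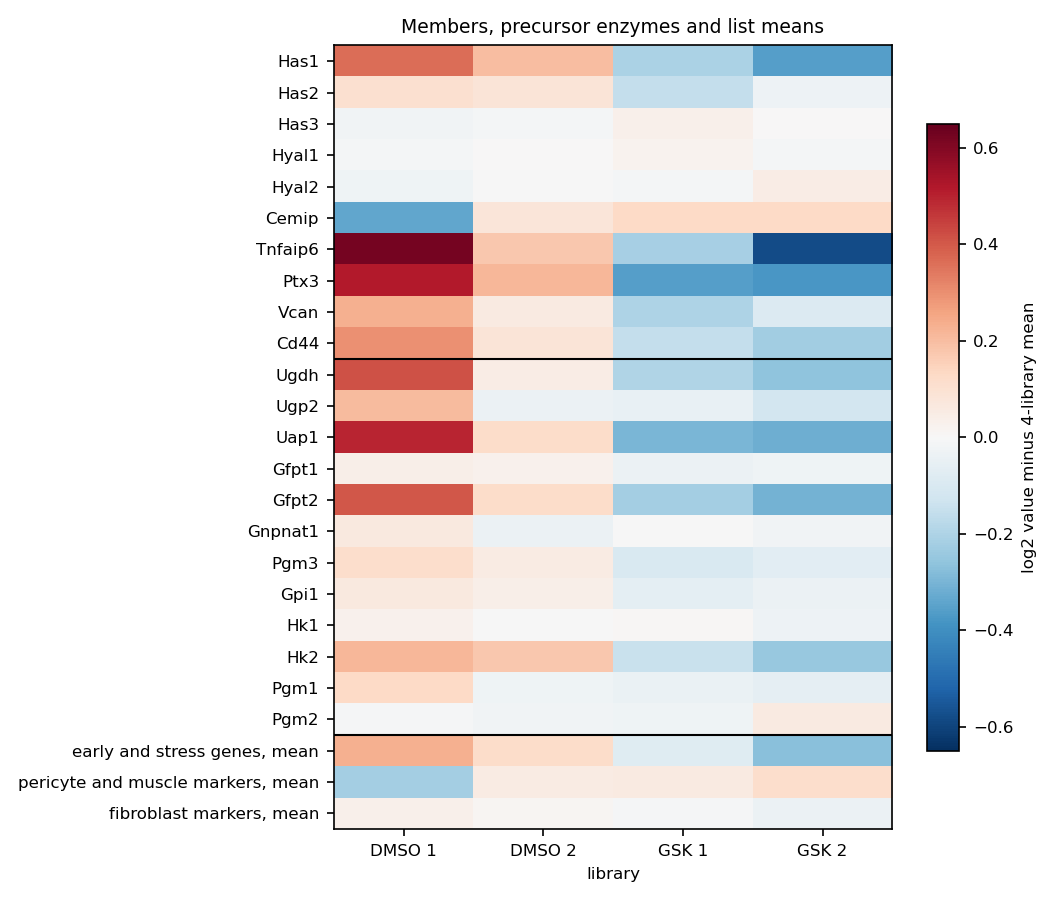
Each gene's log2 value in each library minus its mean over the 4 libraries, for the 10 hyaluronan genes, the 12 precursor enzymes and the means of 3 lists; red is above the gene's mean and blue below. Tnfaip6, Ptx3, Has1, Cd44, Uap1, Gfpt2 and Ugdh are highest in DMSO library 1 and low in both GSK libraries, and Cemip and the pericyte and muscle markers are lowest in DMSO library 1.

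The genes closest in pattern were sought for the 3 members with the largest changes, as the smallest Euclidean distance between centred log2 values over the 4 libraries among 12559 protein-coding genes. Tnfaip6 lay nearest to Cxcl5 (distance 0.099), Il6 (0.104) and Cxcl1 (0.123), which are secreted inflammatory mediators. Il6 measured 12.04 and 11.64 in DMSO and 11.31 and 10.97 in GSK. Ptx3 lay nearest to the chemokine Ccl2 (0.052), the chemokine-scavenging receptor Ackr3 (0.057) and S100a4 (0.078), a calcium-binding protein. Ccl2 measured 13.31 and 13.00 in DMSO and 12.37 and 12.38 in GSK.

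The genes near Has1 included Dnajb1 (0.06), a heat shock co-chaperone, and Slc16a1 (0.062), a lactate transporter. Of the nearest genes named here, Slc16a1 alone passed in limma, at -0.52 ± 0.06 (adjusted p = 0.0474). With 4 libraries, likeness in pattern is a description and many genes share such a profile.

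The 4 libraries were checked against markers of the cell types the fraction could hold. The 12 fibroblast markers averaged 15.75 and 15.74 in DMSO and 15.71 and 15.69 in GSK, with Col1a1 highest at 20.51. Of these, 4 lay lower and 2 higher in both GSK libraries (24.5% and 24.1% of all tested genes), and none passed in limma. The largest change was that of Pdpn, -0.37 ± 0.11 (limma adjusted p = 0.182). Of 8 epithelial or 4T1 markers, 7 were in the table and 3 were tested, none past the threshold. All 3 lay lower in both GSK libraries (24.5% of all tested genes did so). Krt8 (3.59) and Krt18 (4.37) were low, with changes of -0.04 and -0.07. The summed level of the 7 was 9.06 to 9.12 in DMSO and 8.72 to 8.92 in GSK. It came mostly from Krt19 (8.82), while Epcam stood at 0.32 in every library and Cdh1 at 2.22 to 2.25. The 6 pan-leukocyte markers summed to 10.52 to 10.75 in DMSO and 11.19 to 11.84 in GSK, nearly all of it Cd53 (11.03), while Ptprc stood at 3.77 to 3.91. Summed levels in the 4 libraries were 8.64 to 8.85 for 8 macrophage markers. Most of that came from Csf1r (8.28), and 4 of the 8 were below the filter. The sums were 6.62 to 6.69 for 7 endothelial markers (Kdr highest at 5.13) and 7.02 to 7.24 for lymphatic endothelial markers (Flt4 highest at 6.42). For neutrophil markers they were 2.69 to 2.71 (S100a9 highest at 1.17). Epcam, Cdh1 and Ptprc were named as defining markers after their values were seen, and Pdpn, Krt8 and Krt18 were also named after that. The part of these cells in the differences above was not tested.

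DMSO library 1 was the highest library in all 6 members that lay lower in GSK, and in 59.9% of the 3571 tested genes with that pattern. Without it, the changes were -0.573 for Tnfaip6, -0.582 for Ptx3, -0.485 for Has1, -0.276 for Cd44, -0.205 for Vcan and -0.181 for Has2. Without DMSO library 2 they were -1.02 for Tnfaip6, -0.883 for Ptx3, -0.644 for Has1, -0.49 for Cd44, -0.375 for Vcan and -0.196 for Has2. Cemip was at 0.466 there. Has1 was at -0.64 without GSK library 1 and at -0.488 without GSK library 2. Each of these fits leaves 1 library in 1 group, so the spread of that group is not measured and no p-value is given. With all 4 libraries, Ptx3 and Has1 passed in limma with a robust variance prior (adjusted p = 0.0461 and 0.0434), where 138 of 14548 tested genes passed. Both also passed after centring each library on its median (0.0471 and 0.0483), where 126 genes passed. In the main fit 41 genes passed, none of them a member.

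**Figure D5:**
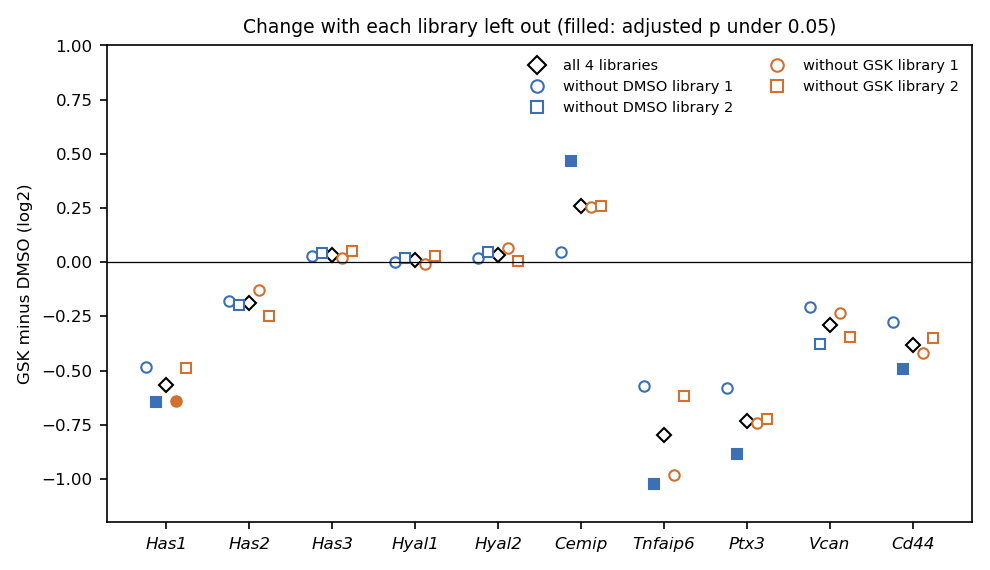
Change from DMSO to GSK (log2) of each hyaluronan gene with all 4 libraries and with each library left out. Filled symbols have a limma adjusted p under 0.05, but with a library left out the spread of 1 group is not measured. The 6 lower members stay below 0 in each case, as they must when both GSK libraries lie below both DMSO libraries. Cemip runs from 0.0496 without DMSO library 1 to 0.466 without DMSO library 2.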

How the data were processed

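RNA of 4 fibroblast libraries, 2 per group, was sequenced. The authors deposited 1 table of normalised log2 values (log2 taken from the values, -1.035 to 20.58). Per the submitters' processing notes, RSEM 1.2.29, Bowtie2, DESeq2 1.12.4, mm10 and GRCh38 were used, with no roles given. The transformation is not given in the sources used here, nor is the annotation. Low values vary little between libraries, and if they were shrunken, fold changes of low genes are too small.

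Symbols, coordinates and lengths came from GENCODE M21 on GRCm38 (22335 identifiers matched). limma 3.58.1 in R 4.3.3 compared GSK with DMSO on the deposited log2 values, without a pseudocount, for genes whose mean reached log2 of 10, with a trended variance prior, two-sided, Benjamini-Hochberg adjusted over all tested genes. SE is limma's moderated error. The fit was checked on simulated data. Transcripts were compared with blastn 2.17.0 (at least 98% identity over 200 bases).

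Members and lists were chosen with earlier results of these data known. Named were all members, the 3 smallest p in each pathway list, the highest gene of each marker list, the 3 early genes with the smallest p and the 3 nearest patterns of 3 members; some genes under this rule are not reported here. Alternatives were filters, scalings, variance priors, a block on the replicate number, left-out libraries and another gene length. No sample column was left unused.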

Additional observations from a re-analysis of the deposited data

How the results depend on the processing

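The 6 members that lay lower in GSK kept that direction under all 11 alternatives run, but for most of these this was fixed beforehand. Filters, variance priors and the block leave the estimate as it is. With both GSK libraries below both DMSO libraries, leaving 1 library out cannot reverse it. Only quantile normalisation and median centring could have done so. Over all genes, 41 passed (19 lower, 22 higher), against 1 with no filter, 23 after quantile normalisation, 126 after median centring, 11 with a variance prior without trend, 138 with a robust prior and 7 to 194 with a library left out. Members past the threshold numbered 0, against 2 after median centring, 2 with a robust prior and 0 to 5 with a library left out. Other pathway genes past it numbered 0, against 1 (Hk2) after median centring, 1 (Hk2) with a robust prior and 0 to 3 with a library left out. The median change of the members ran from -0.181 to -0.298. Hyal1 ran from -0.00968 (without GSK library 1) to 0.0299 (without GSK library 2). The causes were not tested. With a filter at log2 of 50, Has3 gave no value.

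With the replicate number as a block, 1374 genes, 6 members (those that lay lower) and 7 other pathway genes passed. The labels do not say that equal numbers mark a shared source. The differences between library 1 and 2 of each group correlated at 0.428 over genes, so this is only a hint from the data.

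With the longest transcript as length, the levels per kilobase were 10.03 for Has1, 0.89 for Has3, 4.59 for Hyal1, 6.55 for Hyal2, 6.12 for Cemip, 11.58 for Ptx3, 9.91 for Vcan and 10.25 for Cd44. Depth is unknown, so what it limits could not be stated.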
